A study of Homo sapiens with 6 samples.

Results

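Cell surface marker genes that are used to sort mammary stem-like, epithelial and mesenchymal cells were followed in cells labelled MDA-MB-468 with a hairpin against cytokeratin 5 and with a control hairpin. The 9 genes were chosen by name: CD24, CD44, PROM1, EPCAM, THY1, NT5E, ENG, ALCAM and MCAM, of 56505 rows in the count table. MDA-MB-468 is an established line from a human breast tumour without estrogen receptor, progesterone receptor or HER2 amplification. RNA sequencing covered 3 libraries labelled shCK5-22, in which the hairpin targets KRT5, the gene of cytokeratin 5, and 3 libraries labelled shControl. Cells of both groups carried a pLK0 hairpin construct, grew in serum-supplemented Dulbecco's medium and received no other treatment. A single KRT5 hairpin was sequenced, so effects of the hairpin on other transcripts cannot be told apart from loss of KRT5. No label states that replicates are separate cultures, and p-values therefore cover the spread among these libraries alone, which may be technical.

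Flow cytometry sorts cells by proteins on their surface, and combinations of these markers define populations. In breast cancer a profile with CD44 and little or no CD24 is used to enrich stem-like cells, and EPCAM separates epithelial from stromal cells. CD73 (encoded by NT5E), CD90 (THY1) and CD105 (ENG) together are the classical surface profile of cultured mesenchymal stromal cells, while CD146 (MCAM) marks endothelial cells and pericytes. Transcript levels stand in here for the proteins, which were not measured.

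Total counts per library lay between 75460940 and 83594772 in shCK5-22 and between 68810882 and 75529699 in shControl. Levels are given as CPM, read counts relative to the library size after scaling with the TMM method. KRT5 itself had 17.21, 15.53 and 16.52 CPM in the shCK5-22 libraries, against 2056, 2060 and 2017 CPM in the shControl libraries. The shCK5-22 libraries went against their cell line label at RB1 and SMAD4, which are deleted in MDA-MB-468. RB1 had 101.0 ± 2.16 CPM in shCK5-22 and 1.996 ± 0.136 CPM in shControl, and SMAD4 had 16.86 ± 0.547 CPM in shCK5-22 and 0.2346 ± 0.138 CPM in shControl (SD, n = 3 each). Every difference below is one between these labelled groups, and a difference in cell origin cannot be told apart from an effect of the hairpin.

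Promoter windows are shown for the markers with the largest differences in either direction, CD24 and PROM1, which were lower in shCK5-22, and NT5E and ALCAM, which were higher. Sequences are from RefSeq on GRCh38.p14, 300 bases running from 250 before to 50 after a transcript start, and where a gene has several windows the one nearest its GENCODE start is printed 5′ to 3′. Capitals mark every match on either strand to CAGGTG, the E-box bound by Snail and ZEB factors, to GGGCGG, the GC box, to TGANTCA, the AP-1 site, or to TATAAA.
CD24 promoter, chr6:106975578-106975877, minus strand: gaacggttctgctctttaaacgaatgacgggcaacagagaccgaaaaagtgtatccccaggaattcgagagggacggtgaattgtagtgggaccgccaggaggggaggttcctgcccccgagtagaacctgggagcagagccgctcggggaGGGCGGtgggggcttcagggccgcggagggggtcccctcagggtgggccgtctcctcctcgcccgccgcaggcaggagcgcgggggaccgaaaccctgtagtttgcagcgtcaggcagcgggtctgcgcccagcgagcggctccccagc
PROM1 promoter, chr4:16083974-16084273, minus strand: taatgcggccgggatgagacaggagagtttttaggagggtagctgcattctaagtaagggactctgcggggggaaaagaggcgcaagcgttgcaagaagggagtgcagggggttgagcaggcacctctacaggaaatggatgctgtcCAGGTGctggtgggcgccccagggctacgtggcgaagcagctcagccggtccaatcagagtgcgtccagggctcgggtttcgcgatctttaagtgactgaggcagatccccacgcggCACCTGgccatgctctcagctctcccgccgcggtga
NT5E promoter, chr6:85449833-85450132, plus strand: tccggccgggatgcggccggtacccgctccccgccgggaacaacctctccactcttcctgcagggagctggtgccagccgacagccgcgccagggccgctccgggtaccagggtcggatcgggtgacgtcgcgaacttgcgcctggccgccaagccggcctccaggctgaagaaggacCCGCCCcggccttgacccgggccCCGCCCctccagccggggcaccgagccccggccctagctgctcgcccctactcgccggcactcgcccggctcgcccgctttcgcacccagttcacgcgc
ALCAM promoter, chr3:105366659-105366958, plus strand: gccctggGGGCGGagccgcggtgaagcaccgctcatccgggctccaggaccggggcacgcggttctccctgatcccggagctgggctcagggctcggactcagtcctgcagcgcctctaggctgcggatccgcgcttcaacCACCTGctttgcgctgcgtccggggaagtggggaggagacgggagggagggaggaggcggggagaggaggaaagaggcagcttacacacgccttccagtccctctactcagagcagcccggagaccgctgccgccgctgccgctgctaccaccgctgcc

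In these windows CD24 held 1 GC box, PROM1 held 2 E-boxes, NT5E held 2 GC boxes, and ALCAM held 1 E-box and 1 GC box. No match to the AP-1 or TATA letters fell in any of the printed windows. Of all 35116 windows of this length, 20.6% held the E-box, 45% the GC box, 7.71% the AP-1 site and 11.5% the TATA letters. E-box letters were thus present in a window of a gene that was lower and in one of a gene that was higher in shCK5-22. All 4 windows were richer in CG pairs than the median window, which had 14, with 25 in CD24, 18 in PROM1, 37 in NT5E and 26 in ALCAM. RefSeq windows matched 7 of the 9 members, with 12 windows in all, and not EPCAM or THY1. Windows that are not printed held further matches. Among them were 1 E-box in another CD24 window (chr6:106973990-106974289), and 2 E-boxes and 1 AP-1 site in another PROM1 window (chr4:16076069-16076368). MCAM held 1 E-box and 5 GC boxes. Among the members without a printed sequence, ENG had the fewest CG pairs, 8, while CD44 had 18 and MCAM had 29. These matches describe the letters only; no binding was measured.

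Of the 9 markers, 8 passed the filter on low counts and were tested, and THY1 had no count. In shCK5-22 the epithelial and stem-associated markers CD24, PROM1 and EPCAM and the vascular and stromal markers ENG and MCAM were lower, NT5E and ALCAM were higher, and CD44 was nearly level. With edgeR (quasi-likelihood test, Benjamini-Hochberg adjustment over all 19567 genes tested), 6 of the 8 were lower and 2 were higher at an adjusted p under 0.05. Among all genes tested, 41.7% were lower and 40.9% were higher, 82.7% together, so passing the threshold is the common state in this comparison and sets no marker apart. The 3 libraries of each group did not overlap for 8 of 8 markers, against 84.2% of all tested genes. Differences over 2-fold were found in 7 of the 8 markers, against 44.0% of all tested genes: 2 were higher, against 19.6% of all, and 5 were lower, against 24.4%. The median log2 fold change of the 8 was -2.38, beside -0.0194 over all tested genes. The markers were chosen with earlier results of these data known, so these shares and medians are description and not a test of enrichment. RNA came from whole cultures, in which fewer cells of a type and less RNA per cell cannot be told apart.

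**Figure D1:**
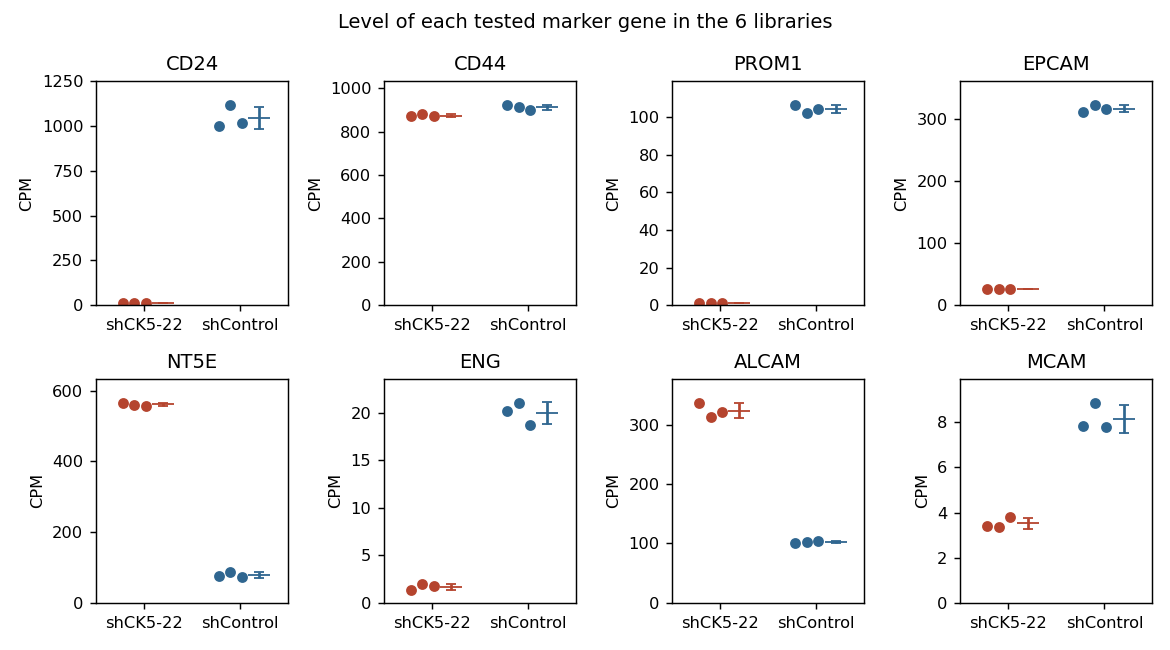
Level of each of the 8 tested markers in CPM (vertical axes, each from 0) in the 3 shCK5-22 libraries (red) and the 3 shControl libraries (blue). Points are libraries, and the bar beside them is the mean with its SD. In every panel the libraries of the groups stand apart, by 86.5-fold for CD24 and by 1.04-fold for CD44.

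CD24 encodes a small, heavily glycosylated protein held in the membrane by a glycosylphosphatidylinositol (GPI) anchor, a ligand of P-selectin and of the inhibitory receptor Siglec-10. The gene (ENSG00000272398.5) lies on the minus strand of chromosome 6, 106969831 to 106975627, in GENCODE v29 on GRCh38, which gives the coordinates below too. CD24 had 10.98, 13.01 and 12.25 CPM in the shCK5-22 libraries, against 1001, 1117 and 1018 CPM in the shControl libraries. All 3 shCK5-22 libraries were far below the lowest shControl library, and the groups did not overlap. The mean was 86.5-fold lower in shCK5-22, at 12.08 ± 1.02 CPM, against 1046 ± 62.4 CPM in shControl (SD, n = 3 each). The log2 fold change was -6.44 (SE 0.0502, edgeR adjusted p = 5.93e-32). Only 2.72% of all tested genes had a larger absolute log2 fold change. Of the processed pseudogene copies of CD24 with a row, CD24P1 and CD24P4 were listed at 0 in all libraries and CD24P2 had at most 2 counts in each; how reads that match several copies were counted is not stated, and their part in the CD24 counts was not tested.

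PROM1 encodes CD133, a pentaspan glycoprotein of plasma membrane protrusions and a widely used stem cell marker. PROM1 (ENSG00000007062.11, chromosome 4, 15963076 to 16084378, minus strand) had 1.373, 1.390 and 1.231 CPM in the shCK5-22 libraries, against 106.3, 102.3 and 104.4 CPM in the shControl libraries. It was the marker closest to CD24 in the size of its difference. The mean was 1.331 ± 0.0877 CPM in shCK5-22 and 104.3 ± 1.97 CPM in shControl, 78.4-fold lower in shCK5-22, and the log2 fold change was -6.29 (SE 0.0561, edgeR adjusted p = 6.28e-31). FGFBP2 shares 2.23% of the exon length of PROM1 on the same strand and had 4 counts in shCK5-22 and 57 in shControl, beside 304 PROM1 counts in shCK5-22 and 23572 in shControl.

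EPCAM encodes the epithelial cell adhesion molecule, a homotypic adhesion protein of most carcinomas that is cleaved to release a signalling fragment. EPCAM (ENSG00000119888.10, chromosome 2, 47345158 to 47387601, plus strand) had 26.68, 26.68 and 26.46 CPM in the shCK5-22 libraries, against 310.4, 322.1 and 316.1 CPM in the shControl libraries. The libraries of each group were close to one another and far from the other group. The mean was 11.9-fold lower in shCK5-22 (log2 fold change -3.57, SE 0.0312, edgeR adjusted p = 4.52e-31). The fall was smaller than that of CD24 or PROM1.

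CD44 encodes the main receptor for hyaluronan, and its transcript is spliced into standard and variant forms that are counted together here. CD44 (ENSG00000026508.18, chromosome 11, 35138870 to 35232402, plus strand) had 870.6, 882.3 and 869.8 CPM in the shCK5-22 libraries, against 922.4, 915.6 and 897.4 CPM in the shControl libraries. The lowest shControl library was above the highest shCK5-22 library, by a margin close to the spread within shControl. Means were 874.2 ± 6.98 CPM in shCK5-22 and 911.8 ± 12.9 CPM in shControl, and its log2 fold change was -0.06 (SE 0.0243, edgeR adjusted p = 0.0249). Larger absolute log2 fold changes were found in 95.7% of all tested genes. The call did not hold in 6 of 11 alternative settings. The adjusted p was 0.119, 0.0667 and 0.154 without shCK5-22 replicates 1, 2 and 3, 0.08 without shControl replicate 1, 0.051 with DESeq2 size factors and 0.075 without the filter on low counts. Scaled by library size alone, the log2 fold change was -0.20, at a median of -0.156 for all tested genes, and so -0.04 relative to that median.

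**Figure D2:**
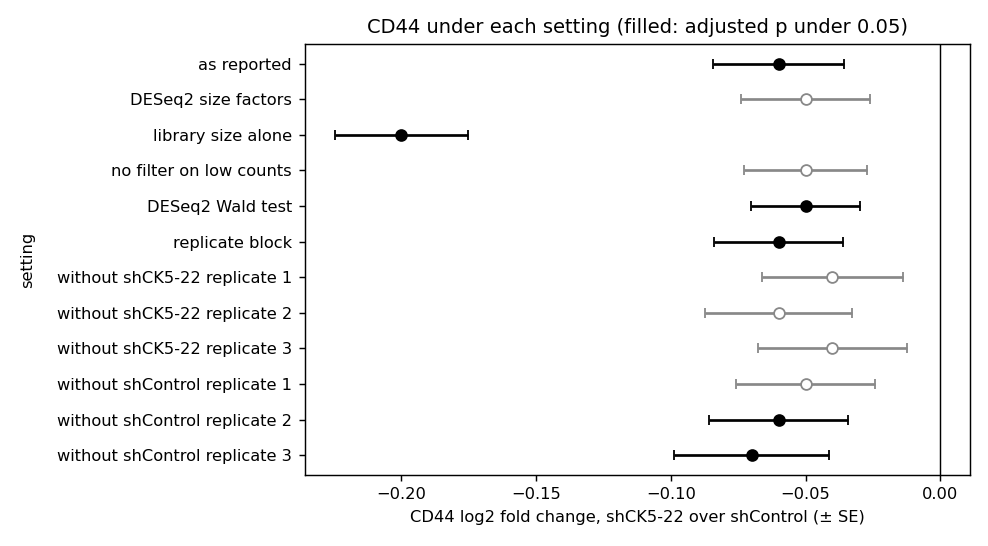
CD44 log2 fold change, shCK5-22 over shControl, with its standard error (horizontal axis) under the reported setting and 11 alternatives (vertical axis). Filled points have an adjusted p under 0.05. Values lie between -0.07 and -0.04 except with scaling by library size alone, at -0.20.

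The pair of CD44 and CD24 is read together in sorting, and the ratio of their counts within a library does not depend on how libraries are scaled. CD44 counts were 79.3, 67.8 and 71.0 times those of CD24 in the shCK5-22 libraries, against 0.921, 0.82 and 0.881 times in the shControl libraries. As the log2 ratio of CD44 to CD24, this was 6.18 ± 0.116 in shCK5-22 and -0.20 ± 0.0849 in shControl (SD, n = 3 each), a difference of 6.38. All of it came from the lower CD24 (log2 fold change -6.44), since CD44 moved by -0.06, which lowers the ratio. The counts of CD44 were 32.6, 33.1 and 32.9 times those of EPCAM in the shCK5-22 libraries, against 2.97, 2.84 and 2.84 times in the shControl libraries. These ratios are not corrected for transcript length, so they are compared between groups and not read as ratios of molecules. Relative to shControl, the transcript pattern in shCK5-22 was lower CD24, EPCAM and PROM1 with CD44 nearly level and high in both groups. Whether single cells carried this pattern was not measured.

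**Figure D3:**
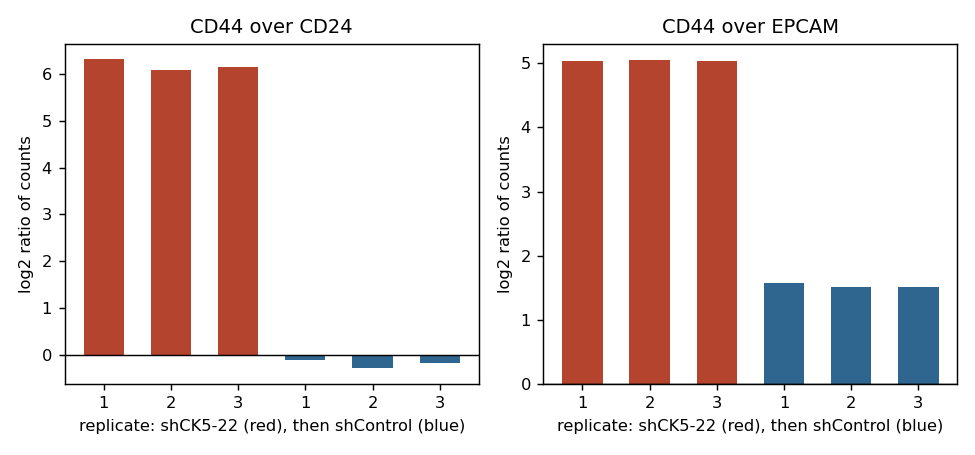
Log2 ratio of the counts of CD44 to CD24 (left) and of CD44 to EPCAM (right) in each library (vertical axes). Bars are the 3 shCK5-22 libraries (red) and then the 3 shControl libraries (blue). The ratio to CD24 is above 6 in shCK5-22 and just below 0 in shControl.

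NT5E encodes CD73, the GPI-anchored ecto-5′-nucleotidase that turns extracellular AMP into adenosine. NT5E (ENSG00000135318.11, chromosome 6, 85449584 to 85495791, plus strand) had 566.1, 560.5 and 557.3 CPM in the shCK5-22 libraries, against 75.6, 88.27 and 73.38 CPM in the shControl libraries. Each shCK5-22 library was far above each shControl library. The mean was 561.3 ± 4.47 CPM in shCK5-22 and 79.08 ± 8.03 CPM in shControl, 7.1-fold higher in shCK5-22 (log2 fold change 2.83, SE 0.0439, edgeR adjusted p = 3.2e-26). It had the larger rise of the 2 markers that were higher.

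ALCAM encodes CD166, an immunoglobulin superfamily adhesion protein that binds itself and the lymphocyte receptor CD6. ALCAM (ENSG00000170017.12, chromosome 3, 105366909 to 105576900, plus strand) had 336.9, 313.5 and 320.7 CPM in the shCK5-22 libraries, against 101.3, 102.1 and 103.5 CPM in the shControl libraries. The groups did not overlap, and the spread was wider in shCK5-22. The mean was 3.16-fold higher in shCK5-22 (log2 fold change 1.66, SE 0.0298, edgeR adjusted p = 5.99e-25).

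ENG encodes endoglin or CD105, a co-receptor for ligands of the TGF-beta and BMP families that is abundant on endothelium. ENG (ENSG00000106991.13, chromosome 9, 127815012 to 127854756, minus strand) had 1.373, 1.954 and 1.784 CPM in the shCK5-22 libraries, against 20.2, 21.05 and 18.69 CPM in the shControl libraries. The fold difference was close to that of EPCAM, at lower levels in both groups. The mean was 11.7-fold lower in shCK5-22 (log2 fold change -3.56, SE 0.0959, edgeR adjusted p = 3.21e-21). An antisense gene shares 7.95% of its exon length, and with no strand setting stated its reads cannot be told apart from those of ENG.

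MCAM encodes CD146, an immunoglobulin superfamily adhesion protein that binds laminin. MCAM (ENSG00000076706.16, chromosome 11, 119308529 to 119321521, minus strand) had 3.401, 3.37 and 3.816 CPM in the shCK5-22 libraries, against 7.826, 8.863 and 7.776 CPM in the shControl libraries. The levels were low in both groups, and the groups did not overlap. The mean was 3.529 ± 0.249 CPM in shCK5-22 and 8.155 ± 0.614 CPM in shControl, 2.31-fold lower in shCK5-22 (log2 fold change -1.21, SE 0.0944, edgeR adjusted p = 1.29e-11). MCAM shares 6.86% of its exon length with CBL, a ubiquitin ligase gene on the opposite strand, and strand was not stated for the counts. CBL had 125.2 ± 4.33 CPM in shCK5-22 and 121.7 ± 1.84 CPM in shControl (log2 fold change 0.04, edgeR adjusted p = 0.224), beside -1.21 for MCAM. Scaled by library size alone, CBL was at -0.10, or 0.06 relative to the median of all tested genes.

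THY1 encodes CD90, a small GPI-anchored immunoglobulin superfamily protein of fibroblasts, neurons and mesenchymal stromal cells. THY1 (ENSG00000154096.13, chromosome 11, 119417378 to 119424985, minus strand) was listed at 0 counts in each of the 3 shCK5-22 and the 3 shControl libraries. A count of 0 allows up to 0.0378 to 0.0415 CPM per shCK5-22 library and up to 0.0376 to 0.0418 CPM per shControl library, from 3 counts and for counting error only. The 0 is not read as lack of expression, because genes that cells need for GPI anchors, such as PIGM and PIGS, were also listed at 0 in all libraries. Neither PIGM nor PIGS shares exon sequence with another gene in GENCODE v29, and THY1 shares 10.7% of its exon length. Of the mesenchymal stromal trio, NT5E was thus higher and ENG lower in shCK5-22, and THY1 had no count in either group.

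**Figure D4:**
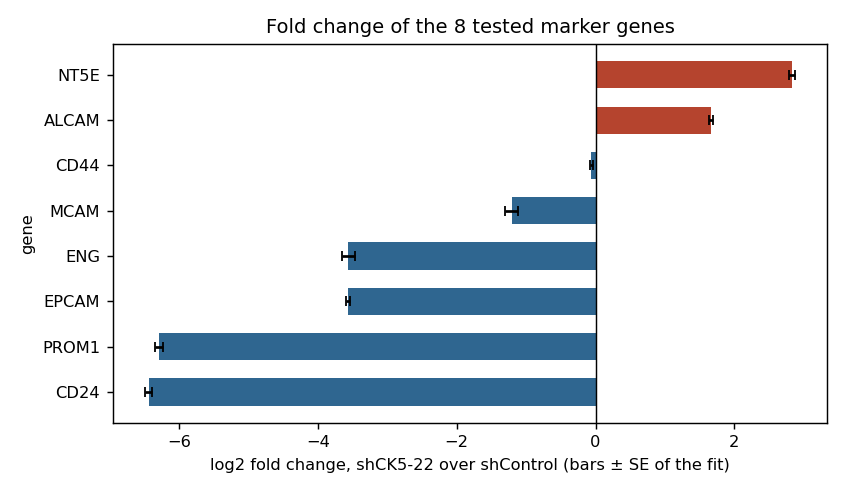
Log2 fold change, shCK5-22 over shControl, of the 8 tested markers (horizontal axis), ordered by value, with the standard error of the fit as error bars. NT5E at 2.83 and ALCAM at 1.66 lie above 0, CD44 lies at -0.06 and the other 5 lie between -1.21 and -6.44.

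To compare markers with each other, CPM was divided by the merged exon length in kilobases. In shCK5-22 the order of these length-scaled levels was NT5E, CD44, ALCAM, EPCAM, CD24, MCAM, ENG and PROM1. NT5E had 124 ± 0.987, CD44 had 87.4 ± 0.697 and ALCAM had 45.1 ± 1.67 CPM per kilobase in shCK5-22 (SD, n = 3). EPCAM followed at 10.6 ± 0.0492 and CD24 at 3.9 ± 0.33 CPM per kilobase, and MCAM at 0.476 ± 0.0335, ENG at 0.433 ± 0.0759 and PROM1 at 0.179 ± 0.0118 CPM per kilobase were lowest. MCAM and ENG overlapped between libraries and did not differ beyond their spread there; all other neighbours in that order were apart.

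In shControl the order was CD24, EPCAM, CD44, NT5E, ALCAM, PROM1, ENG and MCAM. CD24 had 338 ± 20.2, EPCAM 126 ± 2.32 and CD44 91.1 ± 1.29 CPM per kilobase in shControl. NT5E had 17.4 ± 1.77, ALCAM 14.3 ± 0.158, PROM1 14.0 ± 0.265, ENG 5.08 ± 0.304 and MCAM 1.1 ± 0.0827 CPM per kilobase. ALCAM and PROM1 overlapped in shControl, and the other neighbours did not. CD24 thus had rank 5 in shCK5-22 and rank 1 in shControl, and NT5E had rank 1 in shCK5-22 and rank 4 in shControl. CD24 was within the top 44.9% of 16242 tested genes with a length in shCK5-22 and within the top 0.382% in shControl. NT5E was within the top 1.39% in shCK5-22 and the top 14.2% in shControl, while CD44 was within the top 2.33% in shCK5-22 and the top 1.8% in shControl. The merged exon length counts every annotated exon of a gene, so levels of genes with many alternative exons, such as CD44 at 10004 bases, are understated relative to CD24 at 3097 bases.

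**Figure D5:**
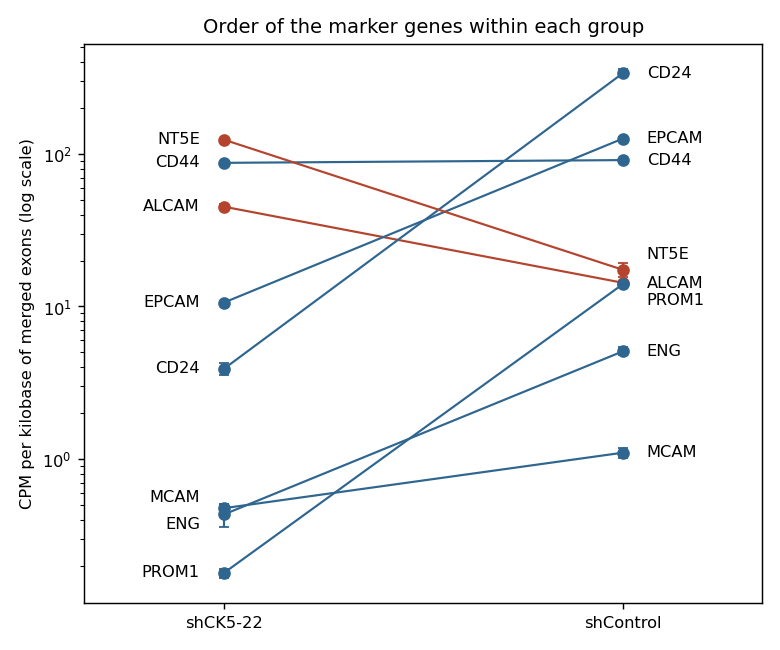
Mean CPM per kilobase of merged exons (vertical log axis) of the 8 markers with counts, in shCK5-22 (left) and shControl (right), with SD bars. Lines join the values of one gene, red where it was higher in shCK5-22 and blue where it was lower. Only the CD44 line is near level, at 87.4 in shCK5-22 and 91.1 in shControl, and the CD24 line is the steepest.

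Other genes with close values in all 6 libraries were found by the distance between log2 CPM values. The nearest tested gene was CASP14 to CD24 (distance 1.77), KYNU to PROM1 (0.619), FAM83H to EPCAM (0.285), RPL4 to CD44 (0.12), TIMP2 to NT5E (0.153), VWA2 to ENG (0.55) and SERPINB7 to MCAM (0.17). Of these 7 markers CD24 had the most distant nearest gene; CASP14 had 9.407 CPM in shCK5-22 and 543.4 CPM in shControl.

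Among all tested genes 40.9% were higher and 41.7% were lower, 82.7% together, and the counts of every list below stand beside these shares. A count of called genes is therefore not read as a trait of a list. Other surface markers used to sort mammary cells were split in direction. Of 23, 20 were tested, of which 8 were higher and 12 were lower in shCK5-22 (median log2 fold change -0.74, beside -0.0194 for all tested genes). MME, which encodes the myoepithelial peptidase CD10, had 0.47 ± 0.0416 CPM in shCK5-22 and 39.99 ± 1.5 CPM in shControl. LGR6, an R-spondin receptor, and the mucin gene MUC1 had log2 fold changes of -5.84 and -4.60. The drug efflux pump gene ABCG2 rose by 4.45 and the tetraspanin gene TSPAN8 by 3.82 on the log2 scale, and both were below 1 CPM in shControl. More abundant genes were also among the 8 that were higher. ITGB1 had 1731 ± 21.9 CPM in shCK5-22 and 236.7 ± 9.11 CPM in shControl. ITGA2, CD55, PROCR and ITGA6 rose by 3.29, 2.94, 2.91 and 1.83 on the log2 scale. ITGB1 and these genes were named after their values were seen.

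CD44 acts together with the enzymes that make and break down hyaluronan, with other hyaluronan receptors and with cytoskeletal linkers. Of 25 hyaluronan and CD44 partner genes, 17 were tested, of which 11 were higher, 4 were lower and 2 missed the threshold (median log2 fold change 0.39). LAYN, which encodes the hyaluronan receptor layilin, had 50.89 ± 1.63 CPM in shCK5-22 and 0.07059 ± 0.0614 CPM in shControl. HAS2, a hyaluronan synthase gene, had 2.947 ± 0.153 CPM in shCK5-22 and 2 counts in shControl, both in replicate 3 (ratio 317, exact 95% interval 91.9 to 2760); its fitted log2 fold change of 8.13 was 10.82 without that library. CEMIP, which acts in hyaluronan breakdown, rose by 4.25 on the log2 scale. ANK3, a cytoskeletal ankyrin gene, and HMMR, another hyaluronan receptor gene, had log2 fold changes of -3.76 and -1.81.

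Around NT5E, 4 of 14 tested genes of the extracellular adenosine pathway (20 listed) were higher, 7 were lower and 3 missed the threshold (median log2 fold change -0.71). Upstream of CD73, ENPP1, which releases AMP from ATP, had 85.47 ± 3.84 CPM in shCK5-22 and 2.608 ± 0.211 CPM in shControl, while the ecto-ATPase gene ENTPD2 had 0.2035 ± 0.0951 CPM in shCK5-22 and 3.72 ± 0.166 CPM in shControl. Downstream, the adenosine receptor gene ADORA2B rose by 1.84 and the nucleoside transporter gene SLC29A1 by 2.84 on the log2 scale, and the receptor gene ADORA1 had a log2 fold change of -4.88.

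CD24, THY1 and NT5E products need a GPI anchor, and the genes that make, attach and trim it were split in direction. Of 30 listed, 24 were tested, of which 11 were higher, 9 were lower and 4 missed the threshold (median log2 fold change 0.07; 8 higher and 10 lower when scaled by library size alone). Lower were MPPE1, PGAP1 and PGAP3, whose products remodel the anchor, with log2 fold changes of -3.48, -1.35 and -1.04, the phospholipase gene GPLD1 at -3.01 and PIGP, of the first synthesis step, at -1.01. PIGA, also of the first step, rose by 1.14 and PIGT, a subunit gene of the transamidase that attaches the anchor, by 0.87 on the log2 scale; these 2 were named after their values were seen.

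EPCAM partners and the proteases that cut it were split, with 8 of 18 tested genes higher, 9 lower and 1 not past the threshold (median log2 fold change -0.16). ST14, which encodes the protease matriptase, had 12.26 ± 0.591 CPM in shCK5-22 and 249.8 ± 2.79 CPM in shControl, and its inhibitor gene SPINT1 had a log2 fold change of -4.14. CLDN7, the claudin that binds EPCAM, had a log2 fold change of -3.59, close to the -3.57 of EPCAM. The gamma-secretase subunit genes NCSTN and APH1B rose by 1.62 and 1.07.

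Among 20 endoglin co-receptors, ligands and partners, 16 were tested, of which 6 were higher, 8 were lower and 2 missed the threshold (median log2 fold change -0.25). The receptor genes TGFBR2 and TGFBR3 rose by 2.19 and 1.47 and MMP14, whose protease sheds endoglin, by 2.58 on the log2 scale. Endoglin protein was not measured. Of the other receptor genes, TGFBR1 and ACVR2B rose by 0.46 and 0.48. BMPR2, ACVR1, ACVR2A and BMPR1A were lower, at -0.60, -0.43, -0.41 and -0.24. BMPR1B missed the threshold, and ACVRL1 was not tested, with 40 counts in shCK5-22 and 0 in shControl. These other receptor genes were named after their values were seen. The ligand genes BMP7 and BMP2 had log2 fold changes of -5.67 and -2.45. Among 16 ligands and partners of CD24, THY1, ALCAM and MCAM, 13 were tested, of which 7 were higher and 4 were lower (median log2 fold change 0.20). WNT5A and LAMA4, both ligands of MCAM, had log2 fold changes of -4.36 and -3.19, CD6, the ALCAM receptor gene, of -3.69 at 2.062 CPM in shControl, and the integrin gene ITGAV of -0.60. Of the 7 that were higher, LGALS1, the gene of galectin-1, had 408 ± 13.2 CPM in shCK5-22 and 47.51 ± 2.31 CPM in shControl (log2 fold change 3.10), and the THY1 partner genes ADGRE5 and SDC4 rose by 2.36 and 2.33; these 3 were named after their values were seen.

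ENG, MCAM and THY1 are also expressed by vascular and stromal cells, so markers of other cell types were read beside them. Of 12 endothelial markers, 10 were tested, 6 higher and 4 lower, and their summed level was 164 to 172 CPM in shCK5-22 and 18.7 to 21.4 CPM in shControl. Most of it was ESAM, with 118.3 ± 3.97 CPM in shCK5-22 and 1.315 ± 0.243 CPM in shControl, and ROBO4 rose by 7.81 on the log2 scale (8.57 without shControl replicate 2). The endothelial gene CDH5 had 0.03476 CPM in shCK5-22 and 1.296 CPM in shControl. ERG, VWF and TEK, named after their values were seen, were also lower, with log2 fold changes of -3.52 (-4.31 without shCK5-22 replicate 3), -1.88 and -1.81, each below 1 CPM in both groups. PECAM1, KDR, EGFL7 and CLDN5, also named after their values were seen, rose by 0.95, 0.88, 1.11 and 2.40 on the log2 scale. EGFL7 had 26.27 CPM in shCK5-22 and 12.15 CPM in shControl, and CLDN5 was below 1 CPM in both groups.

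Of 12 fibroblast and stromal markers, 5 were tested, 2 higher (PDGFRB by 3.19 and PDGFRL by 2.27 on the log2 scale) and 3 lower, with a summed level of 35.8 to 38.4 CPM in shCK5-22 and 540 to 543 CPM in shControl. FBLN1 made up most of the sum, with 20.14 ± 0.852 CPM in shCK5-22 and 520.7 ± 1.04 CPM in shControl. FAP had 0.253 ± 0.0977 CPM in shCK5-22 and 6.041 ± 0.624 CPM in shControl. Untested for low counts, PDGFRA, COL3A1 and DCN had 0, 4 and 0 counts in shCK5-22 and 29, 32 and 2 in shControl. COL1A2, LUM and CXCL12 went the other way, with 24, 20 and 2 counts in shCK5-22 and 6, 0 and 0 in shControl. Of 10 pericyte and smooth muscle markers, 9 were tested, 6 higher and 3 lower, with a summed level of 174 to 182 CPM in shCK5-22 and 830 to 856 CPM in shControl. NOTCH3 made up most of the shControl sum, with 27.73 ± 0.515 CPM in shCK5-22 and 822.7 ± 15.2 CPM in shControl. MYLK made up most of the shCK5-22 sum, with 116.9 ± 3.16 CPM in shCK5-22 and 16.44 ± 0.487 CPM in shControl. CSPG4, RGS5, ACTA2 and ABCC9 rose by 3.15, 0.84, 2.29 and 3.33 on the log2 scale, ACTA2 and ABCC9 below 1 CPM in both groups. MYLK and these genes were named after their values were seen. KCNJ8 was at least 250-fold higher in shCK5-22 against 0 counts, and CNN1 had a log2 fold change of -5.77. MYH11 had a log2 fold change of -0.45. Its edgeR call did not hold without shCK5-22 replicate 2 or 3 or without shControl replicate 1 (-0.41, -0.41 and -0.33). Nor did it hold with DESeq2 or with a replicate block. Of 12 leukocyte markers, 5 were tested and 4 were lower, with a summed level of 2.94 to 3.87 CPM in shCK5-22 and 16.9 to 19.5 CPM in shControl. CD14 and CSF1R had log2 fold changes of -2.65 and -2.64, and CD3D, MS4A1, CD68 and NKG7 were listed at 0 in all 6 libraries. As for THY1, these 0 counts are not read as lack of expression, and CD68 shares 85.8% of its exon length with other genes. The part of these genes in the differences of the surface markers was not tested.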

How the data were processed

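RNA from 6 libraries was sequenced. The authors deposited whole-number read counts for each gene name, not normalized. Per the submitters' processing notes, cutadapt, STAR, SAMtools and Cufflinks were used on GRCh38; the counting program, strand setting and annotation release were not given in the sources used here. Columns were assigned by their names. Between 63.1% and 65% of counts above 20 were even, an excess over chance whose source was not tested; if both mates of a pair were counted, counting intervals are too narrow.

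Counts were analysed in R 4.3.3 with edgeR 4.0.16: filterByExpr left 19567 genes, TMM factors scaled the libraries, and glmQLFit with glmQLFTest compared shCK5-22 with shControl without covariates, adjusted by Benjamini-Hochberg at 0.05. Standard errors are the log2 fold change divided by the square root of the quasi-F statistic. The fit was tested on simulated data. CPM is counts over the TMM-scaled library size, and merged exon lengths are from GENCODE 29. Replicates of a group differed by more than sampling noise (chi-square per degree of freedom at least 4.06). Nearest genes used log2 CPM with a prior count of 2.

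The members and lists were chosen with earlier results of these data known. Named list genes were the 3 with the largest absolute log2 fold change among those past the threshold with non-overlapping groups and at least 1 CPM in a group, plus up to 2 in the minority direction. Alternatives were DESeq2 1.42.0, its size factors, library size alone, no filter, a replicate block and leaving out each library. A few genes of the lists and checks are not reported here.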

Additional observations from a re-analysis of the deposited data

How the results depend on the processing

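Among 11 alternatives each, the 7 tested markers other than CD44 kept their direction and their call in all 77 values. CD44 lost its call in 6 of 11: its log2 fold change was -0.05 with DESeq2 size factors, -0.05 without the filter, and -0.07 to -0.04 when 1 library was left out. Library size alone gave CD44 -0.20. Leaving out 1 library gave 6.31 to 6.43 for the difference in the log2 ratio of CD44 to CD24. The count of fibroblast and stromal markers past the threshold was 8 without the filter, where more genes were tested, and 8 with DESeq2, against 5; the cause was not tested. It was 5 to 7 when 1 library was left out. CBL turned to -0.10 with library size alone (edgeR adjusted p = 0.00697). Relative to the median of -0.156 for all tested genes this was 0.06, the same as in the reported setting. Without shCK5-22 replicate 2 CBL also passed the threshold, at 0.07 (edgeR adjusted p = 0.0445). All genes past the threshold numbered 16177, and 15926 to 17100 under the alternatives. The replicate block gave 15926 genes and -0.06 for CD44 (adjusted p = 0.023); it ended the call of MYH11 (adjusted p = 0.0511). Same-numbered libraries did not deviate together (correlations -0.00606, 0.00752 and -0.0033), and 0 of 3 matched best with their own number. THY1 had no count and gave no value. Depth limits PROM1, ENG and MCAM most in shCK5-22, with 304, 387 and 803 counts over the 3 libraries.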
